A study of Mus with 6 samples.

Results

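The genes described here encode the DNA replication machinery: 51 genes, from the complex that marks replication origins to the enzymes that seal the new strand, chosen by gene symbol. All probes that the platform annotation assigns to these symbols were taken, 91 probes of 45281 on the array, and 51 genes of 19057 with a named probe. They were measured on 6 Illumina mouse bead arrays of total RNA, 3 labelled wild type (WT) and 3 labelled Klf4-deficient. Each sample held leukaemic cells of mice on the C57BL/6 strain with chronic myeloid leukaemia induced by BCR-ABL p210, taken from bone marrow 14 days after transplantation. Cells of both groups carried BCR-ABL p210 and were sorted as GFP+, lineage-negative, Sca-1+ and c-Kit+ (LSK), the phenotype of haematopoietic stem and early progenitor cells. Klf4 is a zinc finger transcription factor. The Klf4 allele, the means of deletion, and the age and sex of the mice are not stated in the labels, nor is whether a sample was 1 mouse or a pool. The spread between samples behind each p-value may therefore be technical.

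A cell copies its genome in a fixed order of steps. In G1 the origin recognition complex, with Cdc6 and Cdt1, loads rings of Mcm2 to Mcm7 onto origins. At the start of S phase the kinase made of Cdc7 and Dbf4, with cyclin-dependent kinases, recruits Cdc45 and the GINS proteins to the ring and turns it into the working helicase. Polymerase alpha with primase then starts each strand, polymerases epsilon and delta extend it on the sliding clamp Pcna, and Fen1 and Lig1 finish the lagging strand. Many of these genes are transcribed under E2F factors as cells leave quiescence, so that in bone marrow they are known as marks of cycling progenitors. Stem cells at rest hold less of their RNA.

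Intensities are on a linear scale with a background already subtracted, so that a probe without signal lies around 0. Values below 32 were set to 32, called the floor here, before the log2 was taken, and a gene with several probes is given by its brightest probe on average, called its representative probe. Of the 51 genes, 40 exceeded the floor on at least 1 array and were tested, and 11 never did. The 11 were Orc1, Gmnn, Cdc45, Gins3, Pola1, Pola2, Prim1, Pole2, Rfc3, Ccne1 and Ccne2. For these no level and no difference can be given at this signal. Of the 40, 5 were above the floor on all 6 arrays (Mcm3, Mcm6, Rpa2, Fen1 and Uhrf1), 8 on 5 arrays, 4 on 4, 10 on 3, 6 on 2 and 7 on 1 array. Low signal thus limited most members.

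On each array 15.6% to 15.9% of all probes were above 32. The deposited values had nearly the same distribution on every array, so this likeness follows from their scaling and does not speak to RNA amount or array quality. WT replicate 3 stood apart from the other 5. Over the 13773 features tested (a gene by its representative probe, or a probe without a name), its Pearson correlation with each other array was 0.29 to 0.31, taken across features that are no independent replicates, against 0.68 to 0.74 among the others. Each result below is therefore also given without it where it matters. The array gave no check of the Klf4 labels: 2 of the 3 Klf4 probes stayed under the floor on every array, and the third exceeded it only in WT replicate 2 (51.9). Of the genes of the sort gate, Kit read 11.5, 17.4 and 381.5 in the WT samples and 118.1, 7.3 and 63.1 in the Klf4-deficient ones, under the floor on 3 of 6 arrays. The gene of Sca-1, Ly6a, had no named probe and was not analysed here. Markers of other cell types did not all lie at background. The 7 erythroid markers with a probe summed to 1927 to 3749 in WT and 3979 to 4795 in Klf4-deficient samples, negative values taken as 0. Of these, 6 exceeded the floor, all 6 with a higher mean in Klf4-deficient samples, and Epor did not on any array. Alas2 exceeded it only in Klf4-deficient samples, so the filter fixed its direction. Alas2 and Car1 did not overlap between the groups (against 2.33% of features in that direction). The 6 T and NK cell markers summed to 75.2 to 111.3 in WT and 294.8 to 404.2 in Klf4-deficient samples, with Klrb1c never above the floor. Of the 5 tested, 4 had a higher mean in Klf4-deficient samples and 1, Cd3e, a lower one. Thy1, Cd3g and Nkg7 exceeded the floor only in Klf4-deficient samples, and Cd3e only in WT replicate 3. The filter thus fixed the direction of these genes. Of these 5, only Thy1 did not overlap between the groups (against the same 2.33% of features). It read 24.4, 26 and -7 in the WT samples and 113, 187.2 and 146 in the Klf4-deficient ones. The 9 neutrophil markers with a probe summed to 2114 to 7525 in WT, and 2084 to 2986 in Klf4-deficient samples. The highest sum, in WT replicate 3, was mostly Mpo (7153), and 3 of the 8 tested neutrophil markers were above the floor there, against 3 to 6 on the other arrays. The 6 monocyte and macrophage markers with a probe summed to 646.2 in WT replicate 3, with 4 of 5 tested above the floor. On the other arrays they summed to 45.8 to 192.1, with 0 to 3 above it. All 5 had a lower mean in Klf4-deficient samples. Ly86 and Cd14 exceeded the floor only in WT replicate 3, and Adgre1 only in WT replicate 1, so the filter fixed their direction. Csf1r (274.3) and Lyz2 (215.1) were highest in WT replicate 3. The part of these cells in the replication results was not tested. In sorted bulk samples, fewer cells of a kind and less RNA per cell cannot be told apart.

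No replication gene passed the test between Klf4-deficient and WT samples. With limma and Benjamini-Hochberg adjustment, 0 of the 40 tested genes had an adjusted p under 0.05, against 0 of 13773 features (0%), and the members' adjusted p ran from 0.72 to 0.98. At an unadjusted limma p under 0.05 there were 2 members, against 298 features (2.16%): E2f2, higher in Klf4-deficient samples (1.52% of features), and Fen1, lower (0.646% of features). The 3 Klf4-deficient values did not overlap the 3 WT values for 3 members, against 3.41% of all features: Rpa1 and E2f2 were higher (2.33% of features) and Fen1 was lower (1.07% of features) in Klf4-deficient samples. Of the 40, 22 had a higher and 18 a lower mean in Klf4-deficient samples, and the median difference was 0.11 (log2), beside -0.07 over all features, of which 45.0% were higher. That median was 0.01 without WT replicate 3 and -0.06 without Klf4-deficient replicate 2. A gene that passed the filter through its bright group alone had to differ, so these counts describe the list and carry no test. The median 95% interval of a member's difference reached 1.72 (log2) to either side of its estimate. Only 4 of the 40 intervals lay within 1 log2 unit of no difference, so for most members a change of 2-fold in either direction was not detectable at this signal and is not shown to be absent. The 4 were Orc2, Dbf4 and Mcm10, above the floor on 1 array each, and Pole, above it on 2. Most of their values were set to the floor, which narrows the interval. A change of 2-fold is therefore not shown to be absent for these 4 either.

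**Figure D1:**
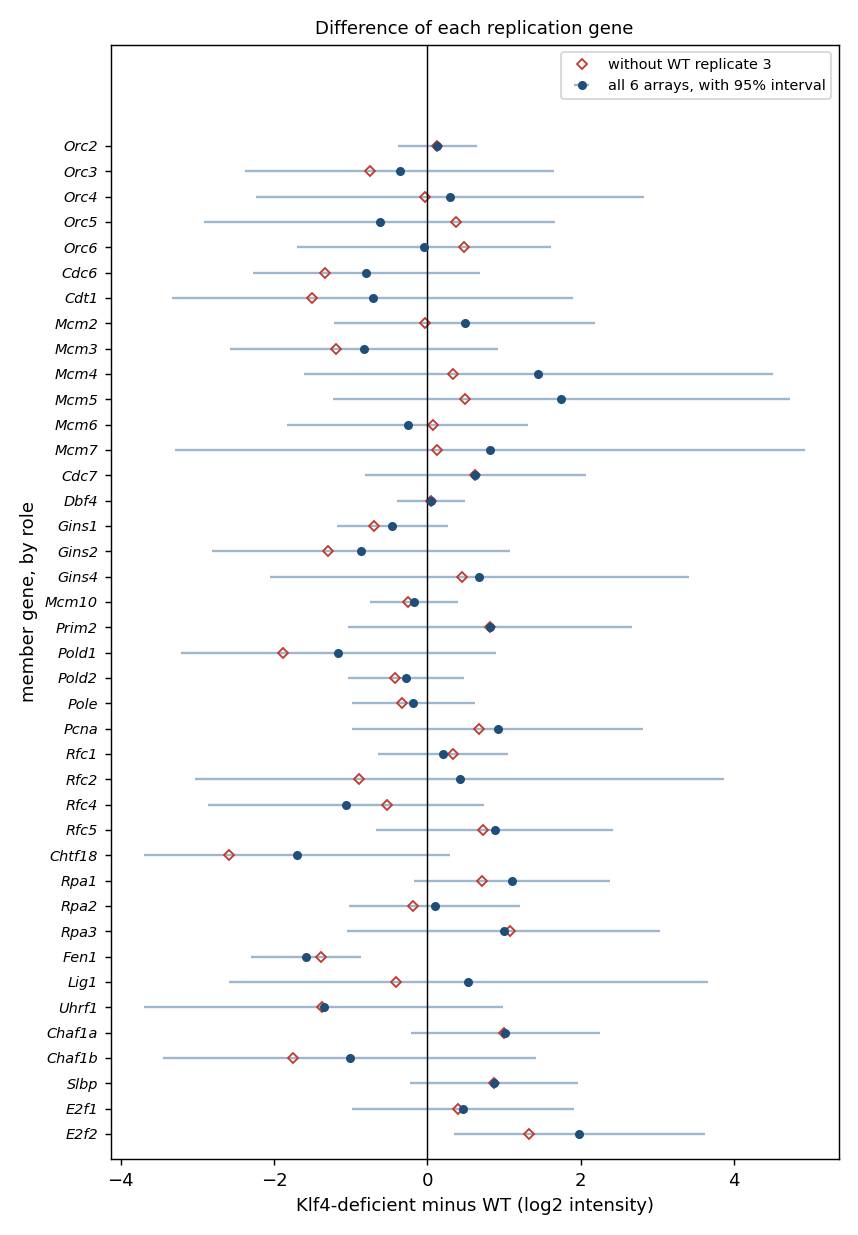
Klf4-deficient minus WT difference (log2 intensity, horizontal axis) of the 40 tested replication genes, ordered by role from origin recognition at the top to cyclin E and E2F genes at the bottom. Filled points with lines are the limma estimate over all 6 arrays with its 95% interval, and open diamonds are the estimate without WT replicate 3. The intervals of 2 genes, Fen1 and E2f2, exclude 0, and 8 genes change sign without WT replicate 3.

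The clearest pattern among the members was not between the groups but in WT replicate 3. On that array 11 of the 40 tested replication genes (27.5%) were above the floor, against 25 (62.5%) and 26 (65%) in the other WT samples and 21 (52.5%), 30 (75%) and 22 (55.0%) in Klf4-deficient samples. Over all features tested, WT replicate 3 had 42.6% above the floor and the other arrays 40.4% to 41.5%. That share includes features that passed the filter through WT replicate 3 alone. Without that array 11269 of the features were tested, while all 40 members stayed tested. Of all features, 31.8% had their highest value in WT replicate 3, against 12.6% to 15.7% on each other array. The shares of members and of all features are thus not like for like. The count over all 91 member probes, which does not depend on which probe stands for a gene, went the same way as that of the 40 genes. It was 16 probes (17.6%) in WT replicate 3 and 29 to 44 (31.9% to 48.4%) on the other arrays. No test was made of this, since it concerns a single sample, and whether it is particular to replication genes was not tested.

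**Figure D2:**
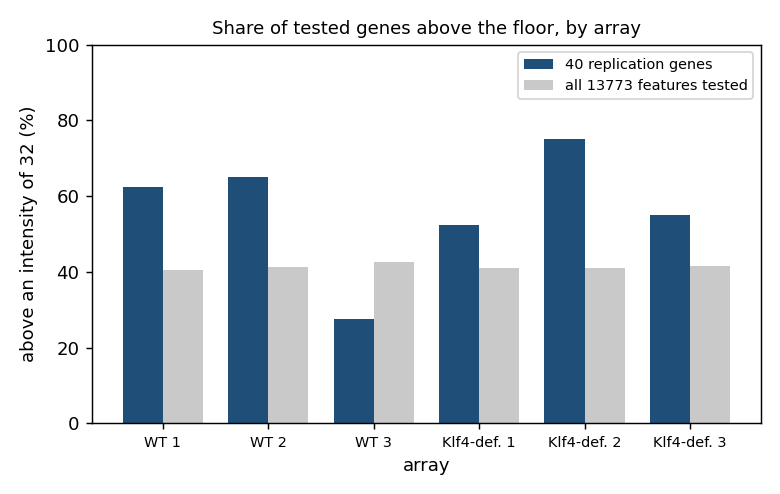
Share of the 40 tested replication genes (dark bars) and of all 13773 features tested (grey bars) with an intensity above 32, in percent, on each of the 6 arrays. The replication genes stand at 27.5% in WT replicate 3 and at 52.5% to 75% on the other arrays, while all features stand at 40.4% to 42.6%. The grey bars include features that were above 32 in WT replicate 3 alone.

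The low signal in WT replicate 3 did not cover every member. The 11 genes above the floor there were Orc5, Orc6, Mcm3, Mcm6, Rfc1, Rfc4, Rpa2, Rpa3, Fen1, Uhrf1 and E2f1, and 5 of them had their highest value of all 6 arrays in that sample: Orc5 (253.7), Orc6 (163.1), Mcm6 (1441), Rfc4 (184.5) and Fen1 (226.6). Genes bright on the other 5 arrays but under the floor in WT replicate 3 included Mcm4 (12), Mcm5 (5), Rfc2 (25.6), Lig1 (10.7), Mcm2 (-8), Rpa1 (6.1) and E2f2 (-0.1). In the other replication genes outside the 51 (further subunits of polymerases delta and epsilon, topoisomerases and checkpoint mediators), 6 of 22 tested were above the floor in WT replicate 3 and 8 to 14 on the other arrays. Nucleotide supply genes counted 3 of 11 there and 6 to 10 elsewhere, and markers of G2 and mitosis 2 of 9 there and 4 to 7 elsewhere. The 2 above the floor there were Bub1, a kinase of the spindle checkpoint (89.3), and Top2a, the topoisomerase of dividing cells, with 1570 against 8.4 to 67 on the other arrays.

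**Figure D3:**
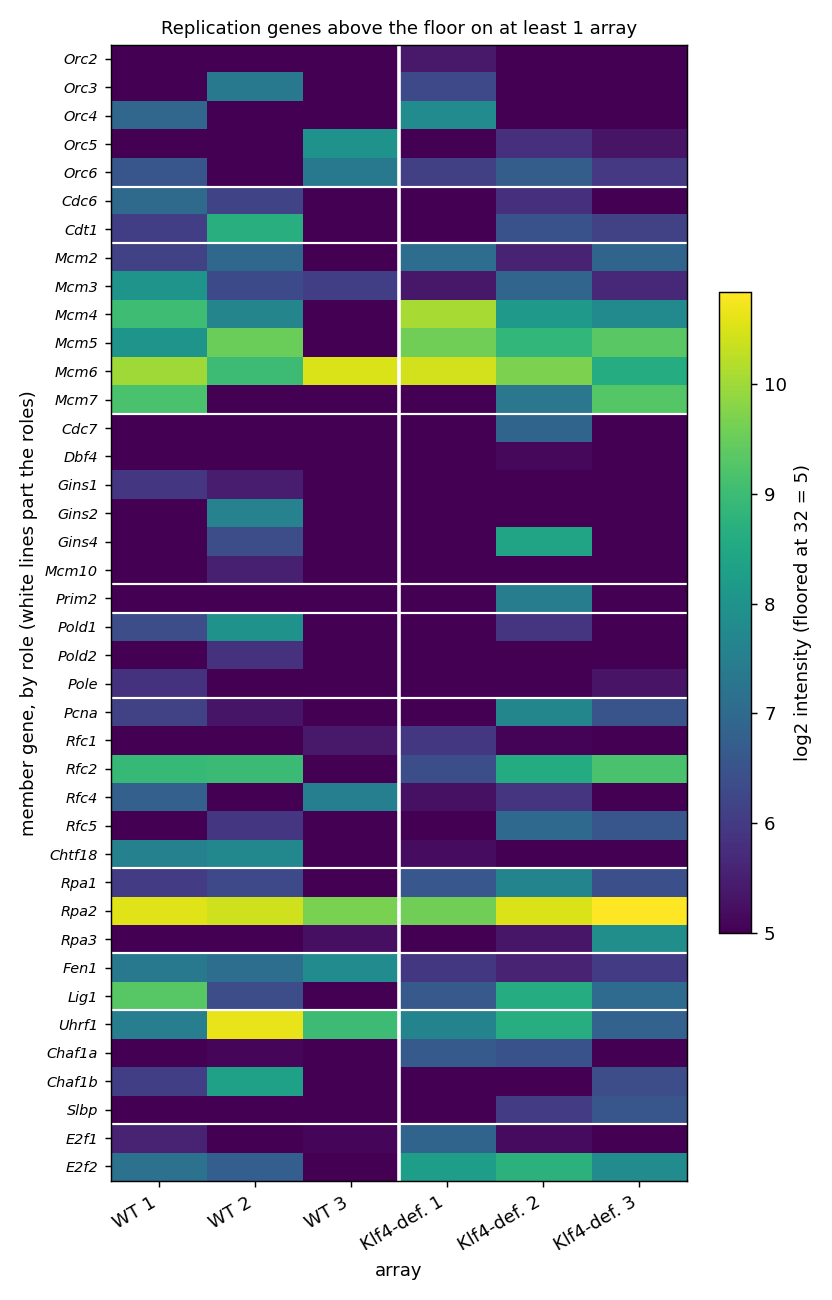
Log2 intensity (colour, floored at 32, which is 5 on the log2 scale) of the 40 tested replication genes (rows, grouped by role) on the 6 arrays (columns). Colours are to be compared along a row, since probes differ in brightness for technical reasons; the column of WT replicate 3 is at the floor for 29 of the 40 genes.

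By representative probe, Orc6 was above the floor on 5 arrays and each other origin recognition gene on 3 or fewer. The origin recognition complex binds origins through the cell cycle and recruits the loading factors, and of its 6 genes 5 were tested. Orc6, the smallest subunit, read 95.1, 17.4 and 163.1 in the WT samples and 69, 105.5 and 62.8 in the Klf4-deficient ones. These values overlapped fully, with the Klf4-deficient values inside the WT range (-0.04 ± 0.66 log2, SE, n = 3 per group). Orc5, an ATP-binding subunit, read 25.2, 22.6 and 253.7 in the WT samples and 32, 55.7 and 39.9 in the Klf4-deficient ones. A single WT array thus set its difference of -0.62 ± 0.90, which turned to 0.37 without that array. Its second probe was also highest in WT replicate 3 (47.1). Orc3 and Orc4 exceeded the floor on 2 arrays each, 1 per group, with 164.5 for Orc3 in WT replicate 2 and 225.1 for Orc4 in Klf4-deficient replicate 1. Orc2 did so on Klf4-deficient replicate 1 alone (41.9). The 4 Orc4 probes, all above the floor on some array, gave differences from -0.52 to 0.78.

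The licensing factors Cdc6 and Cdt1, which open and load the helicase ring, had lower means in Klf4-deficient samples and did not pass the test. Cdc6 read 129.5, 72.9 and 15.6 in the WT samples and 9.1, 56 and -0.7 in the Klf4-deficient ones. Its difference was -0.80 ± 0.59 (SE, log2 scale, n = 3 a group), and -1.33 ± 0.44 without WT replicate 3, where the Klf4-deficient values all lay under the remaining WT values. A second Cdc6 probe exceeded the floor in WT replicate 2 alone (70.3). Cdt1 read 68.2, 406.8 and 9.5 in the WT samples against 29.8, 88.6 and 70.8 in the Klf4-deficient ones. WT replicate 2 carried that difference of -0.71 ± 1.04, which became 0.33 without it. Geminin (Gmnn), the inhibitor of Cdt1, stayed under the floor on all arrays.

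The helicase genes Mcm2 to Mcm7 were well measured, with 6 of 6 tested and 5 or 6 of them above the floor on every array except WT replicate 3, where 2 were. Mcm5 read 258.5, 733.8 and 5 in the WT samples and 757.7, 468.8 and 645.4 in the Klf4-deficient ones. The groups overlapped through WT replicate 2, and Mcm5 differed by 1.75 ± 1.18 (SE, log2 scale, n = 3 a group), and by 0.49 without WT replicate 3. Mcm4 behaved alike in its values: 516.8, 201.5 and 12 in the WT samples and 1083, 286.3 and 216.9 in the Klf4-deficient ones. Its difference of 1.45 ± 1.21 was 0.33 without WT replicate 3, and its other probes gave 0.31 and 0.53. Mcm2 read 69.8, 125.4 and -8 in the WT samples and 137.6, 47.2 and 118.2 in the Klf4-deficient ones, and its difference went from 0.48 to -0.03 when that array was left out.

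Mcm3 and Mcm6 were above the floor everywhere and did not share that dip to the floor. Mcm6 read 1032, 513.5 and 1441 in the WT samples and 1389, 821.4 and 392.3 in the Klf4-deficient ones. The ranges were nearly the same, with a difference of -0.26 ± 0.62 (SE, log2 scale, n = 3 a group, 95% interval -1.83 to 1.31). Mcm3 read 259.9, 79.5 and 68 in the WT samples against 41.6, 120.2 and 50.4 in the Klf4-deficient ones. Klf4-deficient replicates 1 and 3 lay under every WT value, and replicate 2 lay between WT values (-0.83 ± 0.69). Mcm7 was erratic within groups. Its representative probe read 573.1, 0.8 and 0.8 in the WT samples and -1.1, 159.1 and 629.4 in the Klf4-deficient ones, while its other probe read 137.7, 81.3 and -17.7 against 135, 78.1 and 20.7. The 2 probes differed by array within each group, with differences of 0.82 and -0.03. The 6 subunits of this complex, needed in equal number in the ring, gave differences from -0.83 to 1.75, of which 0 passed the test.

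Genes that turn the loaded ring into a working helicase were mostly under the floor. Gins1, a subunit of the GINS complex, read 60.3, 44.2 and -8.9 in the WT samples and 2.2, -9.4 and -0.1 in the Klf4-deficient ones. No Klf4-deficient array thus exceeded the floor and 2 WT arrays did. The floored mean of Gins1 was 1.38-fold lower in Klf4-deficient samples, with limma's adjusted p at 0.72. This is no lower bound, since WT replicate 3 was at the floor too. Gins2 showed 193.3 in WT replicate 2 alone, and Mcm10, which helps the helicase start, 45.7 in the same sample. Gins4 was high in 1 sample of each group, 83.5 in WT replicate 2 and 340.8 in Klf4-deficient replicate 2, against -4.7 to 24 on the remaining arrays. Cdc7, the kinase that fires origins, exceeded the floor in Klf4-deficient replicate 2 on its representative probe (117.6) and in WT replicate 1 on its other (36.1). Its activator Dbf4 reached 35 in Klf4-deficient replicate 2. Differences over the 6 tested genes of this role ran from -0.86 to 0.68.

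Polymerase genes had little signal. Of the 4 genes of polymerase alpha and primase only Prim2, the large primase subunit, exceeded the floor, with 175.7 in Klf4-deficient replicate 2 against -3.4 to 23 on the other arrays. Its second probe was also highest in that sample (57.7). Pold1, the catalytic subunit of polymerase delta, read 82.8, 256 and -4.1 in the WT samples and 10.5, 59.4 and -7.6 in the Klf4-deficient ones. Its difference was -1.16 ± 0.81 (SE, log2 scale, n = 3 a group), and -1.89 ± 0.63 without WT replicate 3, when the groups no longer overlapped. Pold2, its accessory subunit, exceeded the floor in WT replicate 2 alone (57.4). Pole, the catalytic subunit of polymerase epsilon, read 58.3 in WT replicate 1 and 39.9 in Klf4-deficient replicate 3 and was under the floor elsewhere. All 3 tested genes of this role had lower means in Klf4-deficient samples, by 0.18 to 1.16 on the log2 scale, and none passed the test. Pold2 passed the filter through a WT sample alone, so its direction was fixed.

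The sliding clamp and its loaders went in different directions. Pcna, the clamp that tethers polymerases to DNA, read 69.5, 40.5 and 5.9 in the WT samples and 9.2, 204.3 and 92.1 in the Klf4-deficient ones. Its Klf4-deficient values lay on both sides of all WT values above the floor (0.91 ± 0.75 log2, SE, n = 3 per group). Rfc2, a subunit shared by the clamp loaders, read 479.1, 501.8 and 25.6 in the WT samples and 84.5, 383.4 and 570.3 in the Klf4-deficient ones. Its sign depended on the probe and on the array: 0.42 ± 1.36 on the representative probe, -0.89 without WT replicate 3, and -0.63, -0.44 and -0.23 on its other 3 probes. Rfc4 read 111.1, 31.9 and 184.5 in the WT samples and 38.3, 58.6 and 28.2 in the Klf4-deficient ones (-1.06 ± 0.71), and Rfc5 read 5.4, 60.3 and -5.4 against 11.1, 127.2 and 94 (0.88 ± 0.61). Subunits of the same loader thus had opposite signs.

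Chtf18 is the large subunit of an alternative clamp loader that works in sister chromatid cohesion, and its difference between the groups was narrower with WT replicate 3 than without it. It read 189.5, 213 and 20.1 in the WT samples and 36.6, 3.9 and 7.2 in the Klf4-deficient ones. WT replicates 1 and 2 were high, and WT replicate 3 lay under the floor with 2 of the Klf4-deficient arrays. The difference was -1.70 ± 0.79 (SE, log2 scale, n = 3 a group, with an adjusted p of 0.72 by limma). Without WT replicate 3 it was -2.59 ± 0.22 (2 WT against 3 Klf4-deficient samples) with limma's adjusted p at 0.28. That was the lowest adjusted p reached by any of the 40 members in that comparison, and it still did not pass. With array weights in place of leaving an array out, the adjusted p of Chtf18 was 0.073.

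The single-strand binding genes were measured unevenly. Replication protein A coats the DNA strand that the helicase lays bare, and its largest subunit is encoded by Rpa1. Rpa1 read 66, 78.2 and 6.1 in the WT samples and 95.6, 197.9 and 85.6 in the Klf4-deficient ones. All Klf4-deficient values lay above all WT values, the nearest pair being 85.6 and 78.2. Rpa1 differed by 1.10 ± 0.51 (SE, log2 scale, n = 3 a group, with an adjusted p of 0.72 by limma), and by 0.71 ± 0.46 without WT replicate 3. Rpa2, the middle subunit, read 1495, 1363 and 806 in the WT samples and 756.5, 1441 and 1826 in the Klf4-deficient ones on its brightest probe, which was annotated to a cDNA clone. The groups covered the same range (0.09 ± 0.44, 95% interval -1.03 to 1.21). Its second bright probe read 152.5, 109.1 and 279.3 against 213.2, 64 and 69.9, with a difference of -0.76. Rpa3, the small subunit, ran from 4.1 to 38 in WT and read 11.1, 40.7 and 234.9 in Klf4-deficient samples.

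Fen1, the endonuclease that trims the flap between lagging strand fragments, was the member with the narrowest spread among those above the floor on all arrays. It read 163.4, 137.8 and 226.6 in the WT samples and 61.7, 46.8 and 66.1 in the Klf4-deficient ones. Every WT value was at least 137.8 and every Klf4-deficient value at most 66.1, on all 6 arrays above the floor. The difference was -1.58 ± 0.28 (SE, log2 scale, n = 3 a group), or 2.99-fold lower in Klf4-deficient samples, with a 95% interval of -2.30 to -0.86. It ranked at position 32 of 13773 features by limma's p, and its adjusted p of 0.72 did not pass. Fen1 has a single probe on the array, so no second probe bears on it. Without WT replicate 3, where it was highest, the difference was -1.38 ± 0.27.

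Lig1, the ligase that joins those fragments after Fen1, did not share its pattern. It read 633.9, 82.8 and 10.7 in the WT samples and 99.1, 390.6 and 131.4 in the Klf4-deficient ones on its representative probe. The WT values enclosed the Klf4-deficient ones (0.53 ± 1.23 log2, SE, n = 3 per group), and the difference was -0.41 without WT replicate 3. All 4 Lig1 probes exceeded the floor on some array, with differences from -0.61 to 0.53. A probe above the floor on all 6 arrays read 424.9, 56.2 and 140.8 in the WT samples and 81.2, 211.9 and 55.3 in the Klf4-deficient ones.

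Genes that restore chromatin behind the fork were split in sign. Uhrf1, which brings the maintenance DNA methyltransferase to newly copied DNA, read 180, 1591 and 513.5 in the WT samples and 197.5, 395 and 113.4 in the Klf4-deficient ones. The ranges overlapped and WT replicate 2 was far above the rest (-1.35 ± 0.93 log2, SE, n = 3 per group, and -0.56 without that array). Its second probe read 34.6, 94.7 and 83.3 in the WT samples and 33.6, 11.7 and 18 in the Klf4-deficient ones. On that probe the groups did not overlap (against 3.09% of probes tested), by a margin of 34.6 against 33.6, and the difference was -0.996 ± 0.43 in the fit over all 18270 tested probes (limma adjusted p = 0.71). Chaf1a and Chaf1b, partners in the assembly factor that deposits histones on new DNA, had opposite signs. Chaf1a read 9.4, 34.1 and -8.3 in the WT samples and 101.1, 89.1 and 9.9 in the Klf4-deficient ones (1.02 ± 0.49), while Chaf1b read 67.4, 325.4 and -3.8 against -4.3, -11.5 and 83.4 (-1.01 ± 0.96). For both genes Klf4-deficient replicate 3 lay apart from the other Klf4-deficient samples, under the floor for Chaf1a and above it for Chaf1b. Slbp, which binds the stem loop of histone messages, was under the floor in all WT samples and read 2.4, 65.9 and 94.7 in Klf4-deficient samples. Its floored mean was 1.83-fold higher there (95% interval -0.23 to 1.97 log2, limma adjusted p = 0.72). This is no lower bound, since Klf4-deficient replicate 1 was at the floor too.

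Of the G1/S regulators among the members, E2f2 gave the largest difference of the 40 over all 6 arrays, though not without WT replicate 3, where that of Chtf18 was largest in size. E2f2 is an E2F factor that drives genes of S phase entry. It read 144.3, 107.4 and -0.1 in the WT samples and 311, 432 and 225.4 in the Klf4-deficient ones. All Klf4-deficient values lay above all WT values, and WT replicate 3 was at background. The difference was 1.98 ± 0.65 (SE, log2 scale, n = 3 a group), or 3.94-fold higher, with a 95% interval of 0.34 to 3.61 and a limma adjusted p of 0.72. Without WT replicate 3 it was 1.32 ± 0.38, and the groups still did not overlap (against 3.75% of features in that direction). A second E2f2 probe read 127.7, 47.1 and -17.3 in the WT samples and 147, 245.7 and 150.6 in the Klf4-deficient ones. It too did not overlap between the groups, with a difference of 1.61 ± 0.58. The third E2f2 probe stayed under the floor on all arrays. The erythroid and T and NK cell marker sums given above were likewise higher in all 3 Klf4-deficient samples than in all 3 WT samples, and their part in the E2f2 and Rpa1 values was not tested. E2f1, its close relative, read 47.4, 6.2 and 34 in the WT samples and 118, 35.9 and 8.4 in the Klf4-deficient ones, which overlapped (0.46 ± 0.57). Cyclin E genes, Ccne1 and Ccne2, which activate the kinase that starts S phase, were never above the floor.

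**Figure D4:**
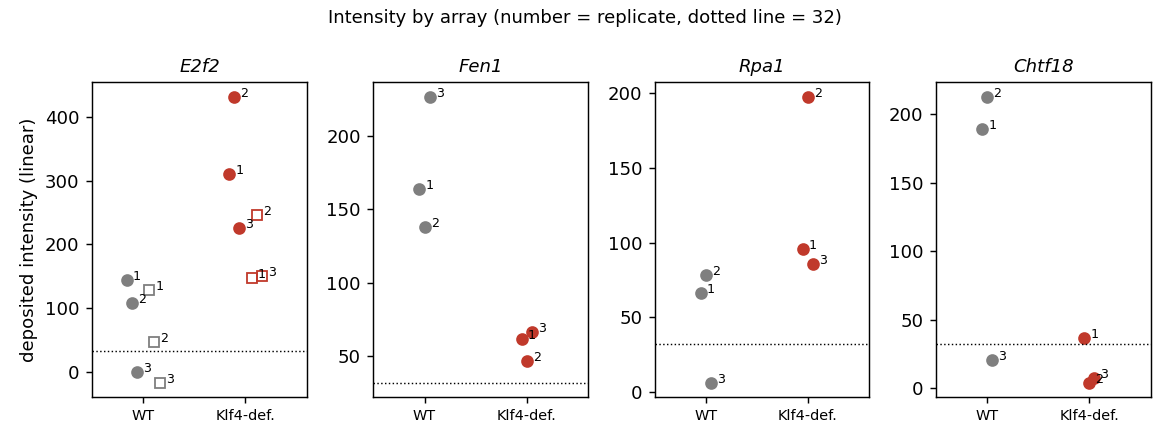
Deposited intensity (linear vertical axis, a scale of its own in each panel) of E2f2, Fen1, Rpa1 and Chtf18 in WT (grey) and Klf4-deficient (red) samples, with the replicate number beside each point and the floor of 32 as a dotted line. Filled circles are the representative probe and open squares the second E2f2 probe; E2f2, Fen1 and Rpa1 do not overlap between the groups, and Chtf18 overlaps through WT replicate 3.

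Without WT replicate 3, the members split evenly, 20 with a higher and 20 with a lower mean, with a median difference of 0.01 (log2) beside 0.06 over all 11269 features then tested. Limma again called 0 members and 0 features, and 6 members had an unadjusted p under 0.05, against 3.71% of features. The groups, now 2 WT against 3 Klf4-deficient samples, did not overlap for 5 lower members (Cdc6, Gins1, Pold1, Chtf18 and Fen1), against 5.27% of features, and for 2 higher members (Rpa1 and E2f2), against 3.75% of features. Of the 40 members, 8 changed the sign of their difference: Orc4, Orc5, Orc6, Mcm2, Mcm6, Rfc2, Rpa2 and Lig1. Fewer samples separate more easily, so these counts are to be read against their own background.

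Probes of the same gene were compared, since they measure the same locus in the same RNA. Of the 51 genes 22 had several probes, and for 16 genes at least 2 probes exceeded the floor on some array. Beside the representative probes, these genes had 25 further tested probes, of which 14 gave the same sign as the representative and 11 the opposite sign, in 8 genes. The 8 genes whose tested probes all gave 1 sign included E2f2, Mcm4 and Uhrf1. Mcm7, Rfc2, Rpa2 and Lig1, all bright on their representative probe, did not. In the fit over all probes, 0 of the 65 tested member probes passed the threshold, against 0 of 18270 probes (0%), and 3 had an unadjusted limma p under 0.05 (Fen1 and 2 probes of E2f2), against 2.03% of probes.

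**Figure D5:**
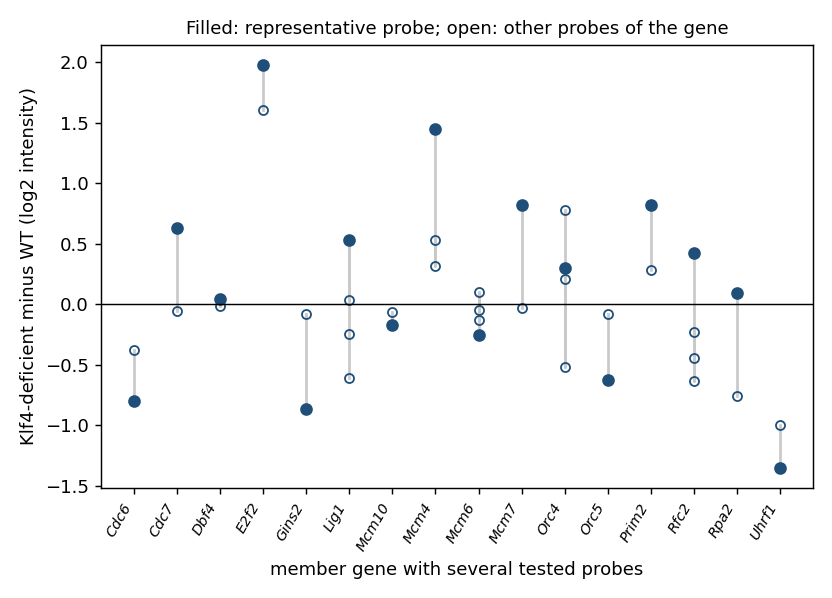
Klf4-deficient minus WT difference (log2 intensity, vertical axis) for every tested probe of the 16 replication genes that have several, with the representative probe filled and the others open. Probes of E2f2 (1.98 and 1.61) and Uhrf1 (-1.35 and -0.996) lie close, while those of Lig1 and Rfc2 lie on both sides of 0.

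Genes that work with the replication machinery but are outside the 51 were read from the same fit, and 0 of them passed the test. Of 29 further fork and origin genes 22 were tested, 10 with a higher and 12 with a lower mean in Klf4-deficient samples. Clspn, the checkpoint mediator that travels with the fork, read 178.2, 221.3 and -2 in the WT samples and -4.7, 54.6 and -10.4 in the Klf4-deficient ones, an order of arrays like that of Pold1. Of 11 tested nucleotide supply genes 7 were higher and 4 lower. Tyms, thymidylate synthase, was the 1 among them whose groups did not overlap, being lower in Klf4-deficient samples (against 1.07% of features). Its difference of -1.63 ± 0.25 (SE, log2 scale, n = 3 a group) was close in size to that of Fen1. Of 20 tested further G1/S regulators 12 were higher and 8 lower, with Ccnd3, a D-type cyclin, at 1.64 ± 0.71. Of 6 tested genes of nucleosome and methylation maintenance 4 were higher and 2 lower, and of 9 tested markers of G2 and mitosis 5 were higher and 4 lower. All of these genes had a limma adjusted p of 0.72 or more.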

How the data were processed

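Total RNA of 6 samples was hybridised to Illumina mouse bead arrays by Asuragen, per the labels, and the submitters' processing notes name BeadStudio. Neither its version nor its background and normalization settings are stated there. The deposited intensities are linear, run from -31 to 37007, and have nearly the same distribution on every array, so they had been background-subtracted and put on one scale by the authors. This scaling hides any difference in total RNA. Arrays, not read depth, limit the precision, with 3 per group.

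Groups came from the sample titles. Intensities below 32 were set to 32 and log2 was taken. Probes were named by the platform annotation (34885 with 1 symbol, 18 with several, 10378 not listed). The probe with the highest mean stood for a gene. Features above 32 on at least 1 array were tested, with limma 3.58.1 in R 4.3.3 (lmFit, eBayes, Benjamini-Hochberg over all 13773 features, threshold 0.05), and all 18270 such probes in a second fit. A fold against a group wholly at the floor compares floored means and is no lower bound. The fit was tested on simulated data. Values were given for members whose groups did not overlap, that exceeded the floor on all arrays, or that were the brightest or had the smallest p of their role; further members were given after their values were seen. The members and lists were chosen with earlier results of these data known. Alternatives were other floors, an offset, mean of probes, other filters, quantile normalization, eBayes with trend, array weights, a replicate block, and leaving out each array. The replicate numbers are not stated to pair samples. Sequences and positions were not used here.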

Additional observations from a re-analysis of the deposited data

How the results depend on the processing

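Under 16 alternatives to the processing, limma called 0 of the replication genes in every one. The count of all features called was 0, except 1 when a gene's probes were averaged, 1 with no filter and 3 with array weights; the cause was not tested. Among the 20 members with a full account, 12 kept their direction in every alternative in which they were tested (Cdc6, Mcm3, Mcm5, Gins1, Prim2, Pold1, Chtf18, Rpa1, Fen1, Uhrf1, Chaf1a and E2f2). Fen1 lay between -1.74 and -1.19 (log2), with adjusted p of 0.26 to 0.89, E2f2 between 1.19 and 2.41, with 0.45 to 0.92, and Chtf18 between -2.59 and -1.10, with 0.073 to 0.89. The other 8 reversed in 26 of their 128 values. Leaving out 1 array at a time, Orc5 lay between -1.12 and 0.37, Orc6 between -0.69 and 0.48, Cdt1 between -1.51 and 0.33, Mcm6 between -0.69 and 0.22, Gins4 between -0.46 and 1.25, Rfc2 between -0.89 and 1.24, Rpa2 between -0.18 and 0.46, and Lig1 between -0.41 and 1.74. With array weights Orc5 was 0.36, Orc6 0.37, Rfc2 -0.79, Rpa2 -0.17 and Lig1 -0.51. When probes were averaged, Rfc2 was -0.22, Rpa2 -0.22 and Lig1 -0.071. Orc6 was 0.25 with a floor of 16 and 0.035 with an offset of 32. Except for leaving out an array, the cause was not tested.

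Leaving out 1 array at a time, between 16 and 24 members were higher and between 16 and 23 lower, and the median difference over members lay between -0.06 and 0.14; against 0.11 with all arrays, it was 0.42 with the filter at percentile 75 of probe means, 0.21 with the offset, 0.20 with a floor of 64, -0.05 with probes averaged and -0.09 with array weights, where 18 were higher and 22 lower. With eBayes by trend and robust, 0 members had an unadjusted limma p under 0.05, against 161 of 13773 features. With array weights 6 members had, against 506 of 13773 features.

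With the replicate number as a block, 22 members were higher and 18 lower and 0 were called. Same-numbered samples deviated from their group means with a correlation of 0.04 to 0.05 across features. Differently numbered samples were not compared, so this does not settle whether the numbers pair the samples. Signal over background limited the values, with 58.7% of those tested at the floor.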
